A study of Mus musculus with 24 samples.

Results

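Anti-PD-1 antibody given alone was compared with a control antibody in D4M tumours, grown in mice from a mouse melanoma line. The comparison holds 12 of the 24 sequenced tumours, taken by their treatment labels: 6 from mice injected intraperitoneally with anti-PD1 antibody (group PD-1) and 6 from mice injected by the same route with IgG2a antibody (group IgG2a). All hosts were C57BL/6 WT mice, so every group shares the strain, the wild-type genotype and the tumour line, and RNA was taken from whole tumours. The remaining 12 tumours came from mice that also received brequinar, abbreviated BRQ, an inhibitor of the pyrimidine synthesis enzyme DHODH. They had the control antibody (BRQ+IgG2a, 6 tumours) or anti-PD-1 (BRQ+PD-1, 6 tumours), and their values are given below only where they are named. Unless a smaller fit is named, all 24 tumours entered the gene filter and the shared estimate of spread behind standard errors, intervals and p-values. The sources used here do not state age, sex, dose or time of sampling. The labels call the tumours biological replicates without stating how animals and tumours relate, so p-values measure the spread between tumours within the treatment groups.

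PD-1, encoded by Pdcd1, is an inhibitory receptor on activated T cells. Its ligands PD-L1 (Cd274) and PD-L2 (Pdcd1lg2) sit on tumour and myeloid cells, and when they bind, phosphatases recruited to the receptor damp signalling from the T cell receptor and from CD28. A blocking antibody keeps the ligands off the receptor. T cells that stay active secrete interferon gamma, which induces antigen presentation genes, guanylate-binding proteins, the chemokines Cxcl9 and Cxcl10 and also Cd274 in the cells around them.

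Counts summed over genes ranged from 20256612 to 34282319 per tumour in the 12 libraries, so 1 CPM (reads scaled to a common library size by the TMM method) stood for 20.3 to 34.3 counts. The tumours carried almost none of the pigment genes that define melanocytes: Tyr, Dct and Oca2 had 0 counts in all 12 libraries together, Tyrp1 had 2 and Mlana 8, and 4 of 14 listed melanocyte genes were abundant enough to test. Mitf, the regulator of that lineage, stood at 12.5 to 17.3 CPM in IgG2a and 11.6 to 15.7 CPM in PD-1, while Axl, a receptor kinase of undifferentiated melanoma, stood at 643 to 904 CPM and 618 to 1019 CPM. Skeletal muscle RNA set 3 of the 12 libraries apart: Acta1, the actin of skeletal muscle, reached 4559 CPM in IgG2a replicate 2, 14990 CPM in IgG2a replicate 3 and 4070 CPM in PD-1 replicate 6, and at most 213.8 CPM in the others. These 3 libraries also separated on the first principal component, which held 67.6% of the variance, and values without them are given beside many of the results below. In bulk tumour RNA, fewer cells of a type and less RNA per cell cannot be told apart.

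Across the genome the effect of anti-PD-1 alone was small. The edgeR quasi-likelihood test with Benjamini-Hochberg adjustment called 3 of 16029 genes at an adjusted p under 0.05 (0.0187%), and all 3 were higher with anti-PD-1: the Toll-like receptor gene Tlr12, the inhibitory leukocyte receptor gene Cd300a and the transcription factor gene Runx3, each with an adjusted p of 0.0402. The next smallest adjusted p was 0.138. At an unadjusted p under 0.05 there were 1036 genes, 6.46% of those tested, with 567 on the higher side (3.54%) and 469 on the lower side (2.93%). That balance leaned on single tumours: without PD-1 replicate 6 it was 480 higher and 868 lower, and without the 3 muscle-rich libraries 496 higher and 272 lower. Among the 42 genes with an unadjusted p under 0.001, 33 were higher with anti-PD-1. The 6 and 6 tumours did not overlap in CPM for 48 genes on the higher side (0.299%) and 31 on the lower side (0.193%).

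**Figure D1:**
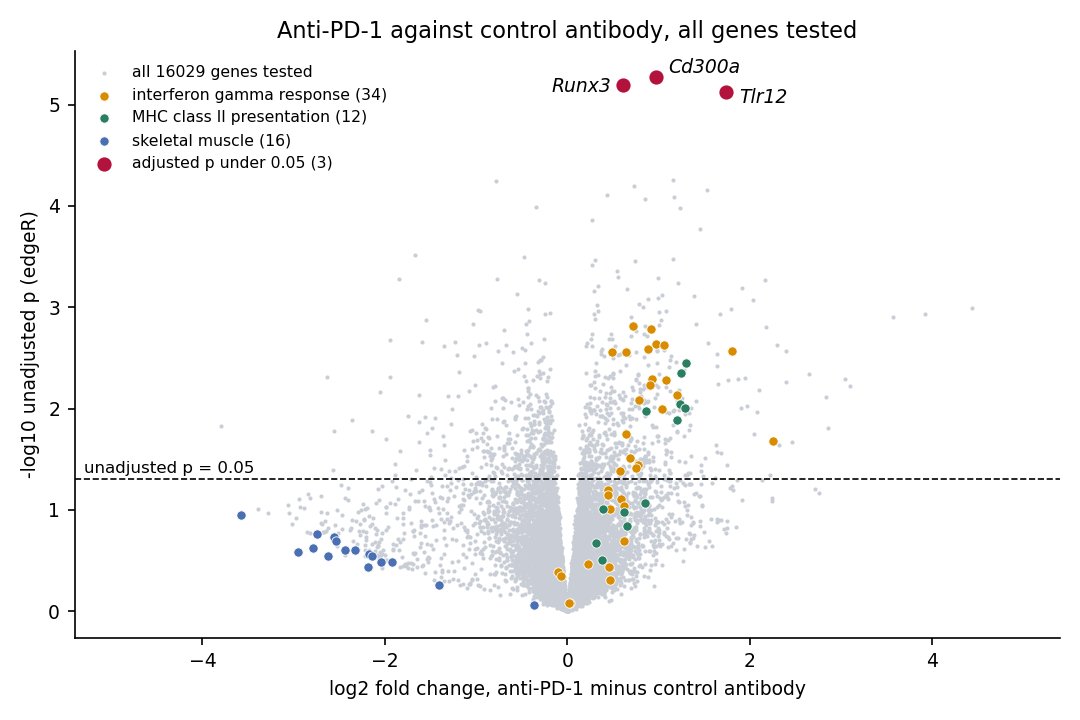
Each point is 1 of 16029 genes, with the log2 fold change of PD-1 minus IgG2a on the x axis and -log10 of the unadjusted edgeR p on the y axis; the dashed line marks p 0.05, the called genes Tlr12, Cd300a and Runx3 are red, and genes of the interferon gamma response (34), MHC class II presentation (12) and skeletal muscle (16) are coloured. The muscle genes lie far to the left below the dashed line, and the interferon gamma and MHC class II genes lie mostly to the right of 0.

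Most genes were measured closely enough to bound their change. The median log2 fold change was -0.000518, with 49.9% of genes above 0, and the central 95% of genes lay between -0.92 and 0.83. The median standard error was 0.158 and the median 95% confidence interval extended 0.327 to each side. For 12464 genes, 77.8% of those tested, this interval excluded a 2-fold change in both directions, and for 59.4% it excluded a 1.5-fold change. A log2 fold change beyond 1 in size was seen in 599 genes, 237 above and 362 below 0, and 185 of them had an unadjusted p under 0.05.

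The spread between tumours was alike in the treated and control groups. The median within-group SD of log2 CPM was 0.236 in IgG2a and 0.233 in PD-1, and 47.1% of genes had the larger SD in PD-1. Without the 3 muscle-rich libraries these medians were 0.182 and 0.187. Precision followed expression level: under 1 CPM (2493 genes) the median interval extended 0.915 to each side, between 1 and 10 CPM (3684 genes) 0.537, between 10 and 100 CPM (7415 genes) 0.238, and above 100 CPM (2437 genes) 0.221. T cell genes such as Cd3e, Cd8a and Ifng were in the lower of these ranges, and guanylate-binding proteins and MHC genes in the upper ones. Immune lists still had wider intervals than these upper ranges: the median extended 0.822 for MHC class II, 0.603 for the interferon gamma response and 0.405 for class I. The median IgG2a SD of log2 CPM was 0.582 for class II genes. It was 0.175 over all genes between 10 and 100 CPM and 0.16 above 100 CPM. The widest spreads belonged to muscle genes, with within-group SDs of log2 CPM for the myosin heavy chain gene Myh4 of 6.06 in IgG2a and 5.13 in PD-1.

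Tlr12, which encodes an endosomal Toll-like receptor that senses the parasite protein profilin in mouse dendritic cells, had 6.54, 8.05, 3.92, 5.51, 4.61 and 3.18 CPM in IgG2a replicates 1 to 6. In PD-1 replicates 1 to 6 it had 25.1, 17.2, 14.5, 17.8, 10.2 and 22.1 CPM. Every treated tumour lay above every control tumour. The mean rose from 5.30 ± 1.79 (SD, n = 6) to 17.8 ± 5.29 CPM (SD, n = 6), a log2 fold change of 1.75 ± 0.30 (SE) with a 95% interval of 1.12 to 2.38.

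Cd300a, an inhibitory receptor of myeloid and lymphoid cells that binds phosphatidylserine and phosphatidylethanolamine, had 6.61, 8.19, 6.07, 7.90, 6.27 and 7.88 CPM in the control tumours. The treated tumours had 16.8, 11, 13.0, 13.6, 12.8 and 16.9 CPM, again all above the controls. The mean rose from 7.15 ± 0.939 to 14.0 ± 2.38 CPM (SD, n = 6 in each group), a log2 fold change of 0.97 ± 0.17. Runx3, a RUNX-family transcription factor of CD8 T cells, natural killer cells and other leukocytes, had 17.8, 17.4, 15.4, 17.7, 17.5 and 19.8 CPM in the controls and 27.3, 23, 26.5, 30.3, 28.3 and 26.3 CPM with anti-PD-1. The groups did not overlap, the mean rose from 17.6 ± 1.39 to 26.9 ± 2.42 CPM (SD, n = 6 each), and the log2 fold change of 0.62 ± 0.11 was the smallest and the most precise of the 3.

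The groups did not overlap for these 3 genes, so a refit that left out libraries could not be expected to turn their direction. Their place past the threshold did not hold in each such refit. When each of the 12 tumours was left out in turn, the log2 fold change stayed between 1.62 and 1.89 for Tlr12, 0.91 and 1.03 for Cd300a, and 0.58 and 0.66 for Runx3, while the edgeR adjusted p ranged from 0.0584 to 0.186, 0.0373 to 0.166 and 0.0373 to 0.166. Without the muscle-rich libraries the log2 fold changes were 1.76, 0.90 and 0.56, with edgeR adjusted p of 0.158, 0.327 and 0.327. With all tumours the other tools called all 3 genes. In the order Tlr12, Cd300a and Runx3, the adjusted p was 3.32e-05, 0.000108 and 0.00027 by DESeq2. By limma voom it was 0.0266, 0.0329 and 0.0329. With no filter on low counts, or with the replicate number as a block, edgeR called 0 genes.

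The stretches of 250 bases before the start sites of Tlr12 and Runx3 are shown because both genes were called and Runx3 encodes a RUNX factor. The RUNX core TGTGGT, or ACCACA on the other strand, was searched from 250 bases before to 50 bases after each start site in the RefSeq promoters of GRCm38.p6 and is in capitals. It occurs in the Tlr12 stretch at position -240 and in the Runx3 stretch at positions -134 and -126, counted from the start site, and in 16.8% of all 32851 promoters of that length. Tlr12 lies on the minus strand, chr4:128618620-128618869, and the Runx3 stretch on the plus strand, chr4:135120395-135120644. The promoters of Cd300a and of a second Runx3 start site did not hold these letters in that window.
Tlr12: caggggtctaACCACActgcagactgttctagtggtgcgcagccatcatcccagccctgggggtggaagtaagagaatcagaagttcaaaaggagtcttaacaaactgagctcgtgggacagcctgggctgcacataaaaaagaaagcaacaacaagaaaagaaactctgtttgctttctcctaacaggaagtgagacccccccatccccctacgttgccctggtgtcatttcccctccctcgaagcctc
Runx3: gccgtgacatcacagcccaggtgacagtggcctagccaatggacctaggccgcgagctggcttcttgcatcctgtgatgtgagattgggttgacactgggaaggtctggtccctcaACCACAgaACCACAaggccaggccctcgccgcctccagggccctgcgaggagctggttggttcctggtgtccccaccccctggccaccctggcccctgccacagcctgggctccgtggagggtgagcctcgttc

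**Figure D2:**
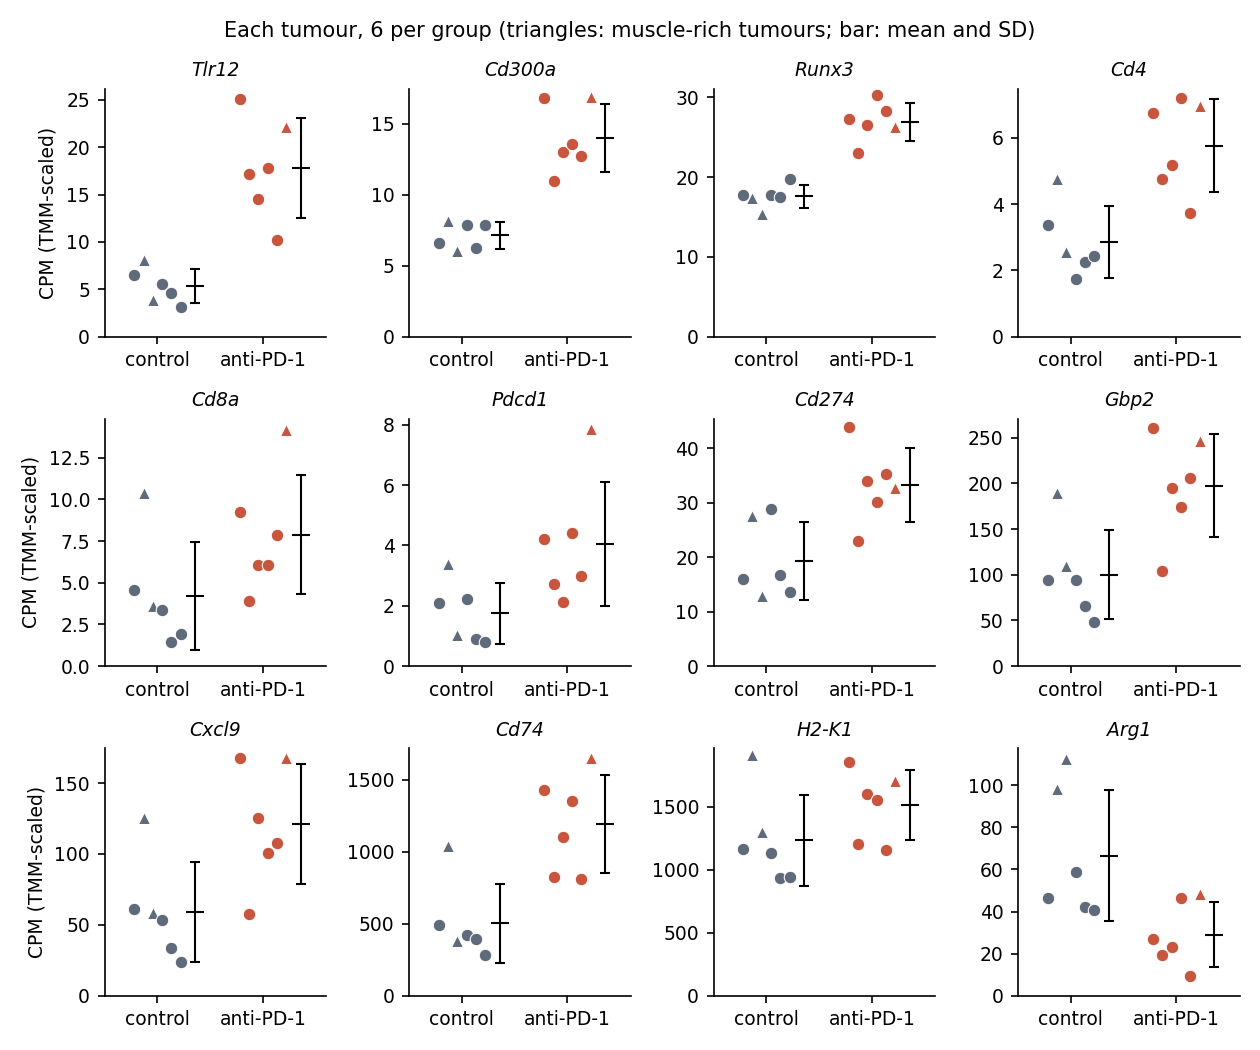
Each panel shows 1 gene in CPM (TMM-scaled, y axis from 0) in the 6 IgG2a and 6 PD-1 tumours, with 1 point per tumour, triangles for the 3 muscle-rich libraries and a bar for the mean with its SD. Tlr12, Cd300a and Runx3 have no overlap between groups, whereas Cd4, Cd8a, Pdcd1, Cd274, Gbp2, Cxcl9, Cd74, H2-K1 and Arg1 overlap.

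Outside these 3 genes the smallest p-values belonged to genes of varied function, and none passed the threshold in edgeR over all tumours. Cybb, the catalytic subunit of the phagocyte NADPH oxidase, stood at 51.9 to 68.4 CPM (median 55.9) in IgG2a and 74.7 to 125 CPM (median 106) in PD-1 without overlap, a log2 fold change of 0.85 ± 0.18. Cyfip2, a subunit of the actin-regulating WAVE complex, stood at 4.0 to 8.02 CPM against 9.18 to 17.8 CPM, a log2 fold change of 1.16 ± 0.24, and Lhx6, a LIM-homeobox factor, at 16.2 to 19.6 CPM against 20.9 to 30.4 CPM, a log2 fold change of 0.43 ± 0.09. Neither gene overlapped between the groups. Itgax, the integrin CD11c of dendritic cells and macrophages, had means of 29.6 ± 8.30 and 69.9 ± 22.4 CPM and a log2 fold change of 1.24 ± 0.26, with 1 control tumour (40.3 CPM) just above the lowest treated tumour (39.8 CPM). Cadm1, an adhesion molecule of the immunoglobulin superfamily, had a log2 fold change of 0.73 ± 0.15. The edgeR adjusted p of Cyfip2, Lhx6, Cybb and Cadm1 was 0.138 and that of Itgax 0.139. DESeq2 called all 5, limma voom called Cybb and Cadm1, and edgeR fitted on the 2 groups alone called Cybb.

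Few genes stood clearly lower with anti-PD-1. Grb10, an adaptor that restrains insulin and IGF receptor signalling, stood at 81.6 to 139 CPM (median 97.3) in IgG2a and 50.2 to 77.3 CPM (median 54.6) in PD-1, without overlap, a log2 fold change of -0.78 ± 0.16. Cd99l2, a CD99-like adhesion molecule, had a log2 fold change of -0.34 ± 0.07, with means of 65.5 and 51.8 CPM. Both had edgeR adjusted p-values above the threshold, at 0.138 for Grb10 and 0.139 for Cd99l2, and DESeq2 called both. The groups also did not overlap for Gmpr, a GMP reductase, with a log2 fold change of -0.96 (-0.47 without the muscle-rich libraries), for Ttc9 at -0.72, for the histone gene Hist1h4h at -0.97 and for N4bp2os at -0.69. Reads of Hist1h4h can come from near-identical histone genes, and those of N4bp2os from the gene on the opposite strand, since the sources used here do not say whether counting used strand. The secreted protein gene Adamtsl2 had a log2 fold change of -1.67 ± 0.39 and was called by DESeq2 and limma voom. Without the muscle-rich libraries edgeR called it too, at -2.39, together with Cadm1 at 0.96, the 2 genes called in that smaller set.

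The antibody's own target and its ligands stood higher on average without passing the threshold. Pdcd1 was scarce, at 0.814 to 3.39 CPM (median 1.57) in IgG2a and 2.13 to 7.85 CPM (median 3.60) in PD-1. All 6 treated tumours exceeded the control mean of 1.75 ± 1.01 CPM and the log2 fold change was 1.21 ± 0.42, with an edgeR adjusted p of 0.514. Cd274 stood at 12.8 to 28.9 CPM (median 16.4) against 23.1 to 43.9 CPM (median 33.4), a log2 fold change of 0.78 ± 0.27 with the same adjusted p. For Pdcd1lg2 the means were 2.77 and 5.45 CPM and the log2 fold change 0.98 ± 0.32. Cd86, a CD28 ligand on antigen-presenting cells, had a log2 fold change of 0.41 ± 0.14 with means of 11.1 and 14.8 CPM. Of 18 tested genes of PD-1, its ligands and costimulation, 6 had an unadjusted p under 0.05, all on the higher side, 0 were called by edgeR, limma voom or DESeq2, and the median log2 fold change was 0.43.

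T cell receptor and coreceptor genes were low in these tumours and varied by several fold between tumours of a group. Cd4, which marks helper T cells, had 1.74 to 4.77 CPM (median 2.5) in IgG2a and 3.74 to 7.2 CPM (median 5.95) in PD-1, a log2 fold change of 1.01 ± 0.28 and an edgeR adjusted p of 0.367. Cd8a, which marks cytotoxic T cells, had 1.42 to 10.4 CPM (median 3.47) against 3.89 to 14.2 CPM (median 6.97), and its log2 fold change of 0.91 ± 0.48 had an adjusted p of 0.782 in the same test. The 2 groups overlapped widely for Cd8a. Cd3e, a chain of the receptor complex, had means of 2.66 and 3.89 CPM and a log2 fold change of 0.55 ± 0.46. All 22 tested genes of this list had a log2 fold change above 0, with a median of 0.64, yet 6 reached an unadjusted p under 0.05 (Cd4, Cd5, Themis, Cd8b1, Cd6 and Ubash3a) and 0 were called by edgeR, limma voom or DESeq2. Only 1 of the 22 had an interval that excluded a 2-fold rise.

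Genes listed under killing and T cell restraint showed the same overlap. Prf1, the pore-forming protein perforin, had means of 2.82 ± 1.72 and 5.06 ± 1.48 CPM and a log2 fold change of 0.84 ± 0.35. Gzmb, a granule protease, stood at 1.44 to 9.19 CPM (median 2.19) against 3.0 to 7.93 CPM (median 5.36), with its highest value in a control tumour. Ifng itself was close to the detection limit, at 0.0339 to 2.11 CPM in IgG2a and 0.519 to 1.12 CPM in PD-1, with a log2 fold change of 0.47 ± 0.66. It was 1.70 without the muscle-rich libraries and between 0.22 and 1.66 with 1 library left out, highest without IgG2a replicate 2. Among 20 cytotoxic effector genes the median log2 fold change was 0.62 and 2 genes, Prf1 and Gzmk, had an unadjusted p under 0.05. Of 13 genes in the list named inhibitory T cell receptors, 7 did, all on the higher side: Pdcd1, Cd244a, Lair1, Vsir, Entpd1, Lag3 and Cd96, with a list median of 0.46. Entpd1 encodes an enzyme and not a receptor, and Lair1 is also in the list of inhibitory myeloid receptors. Bulk RNA does not tell which cells these reads came from. The 12 regulatory T cell genes had a median of 0.29 and 0 with an unadjusted p under 0.05. Among 25 lymphocyte transcription factor genes the median was 0.11, so Runx3 at 0.62, Eomes at 0.84 and Ikzf3 at 1.32 stood above most of their list. None of these 4 lists held a called gene other than Runx3 by edgeR, limma voom or DESeq2.

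The interferon gamma response held the densest group of genes short of the threshold. Of its 34 genes, 21 had an unadjusted p under 0.05 on the higher side (61.8%, against 3.54% of all genes tested), 0 had one on the lower side, and the median log2 fold change was 0.66 against -0.000518 over all genes. Gbp2, a guanylate-binding protein of cell-autonomous immunity, stood at 48.1 to 189 CPM (median 94.5) in IgG2a and 104 to 261 CPM (median 200.2) in PD-1. Its log2 fold change was 0.98 ± 0.28, with an edgeR adjusted p of 0.392, and 2 control tumours, replicates 2 and 3, lay within the treated range. Gbp7 had a log2 fold change of 0.72 ± 0.20, with means of 55.7 ± 13.4 and 91.9 ± 21.0 CPM, and the interferon-inducible GTPase gene Tgtp2 one of 0.92 ± 0.26, with means of 27.9 and 52.9 CPM. Cxcl9, a chemokine that draws CXCR3-bearing T cells, stood at 23.6 to 125 CPM (median 55.7) against 57.8 to 168 CPM (median 116), a log2 fold change of 1.03 ± 0.37. Cxcl10, which binds the same receptor, had a log2 fold change of 0.62 ± 0.35. Neither edgeR, limma voom nor DESeq2 called a gene of this list. Gbp and Tgtp genes have near-identical copies, so their single values are uncertain.

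Antigen presentation genes leaned upward in both MHC classes. Among 12 MHC class II presentation genes all had a log2 fold change above 0, with a median of 0.86, and 6 had an unadjusted p under 0.05: Ciita, Cd74, H2-Aa, H2-Eb1, H2-DMb1 and H2-Ab1. Ciita, the transactivator of class II genes, stood at 8.69 to 18.9 CPM (median 10.1) in IgG2a and 17.1 to 41.0 CPM (median 27.1) in PD-1, a log2 fold change of 1.3 ± 0.40. Cd74, the invariant chain, had means of 502 ± 272 and 1194 ± 339 CPM and a log2 fold change of 1.25 ± 0.39. Its edgeR adjusted p was 0.467, and limma voom called it while edgeR and DESeq2 did not. For both genes 1 control tumour, replicate 2, reached into the treated range.

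Class I genes had smaller log2 fold changes, with narrower intervals. H2-K1, a classical class I heavy chain, stood at 936 to 1914 CPM (median 1150.0) against 1160 to 1854 CPM (median 1578), a log2 fold change of 0.30 ± 0.17. B2m, the light chain, had a log2 fold change of 0.17 ± 0.13, and the peptide transporter gene Tap1 0.60 ± 0.22. Of 21 class I presentation genes, 6 had an unadjusted p under 0.05 and the median log2 fold change was 0.30, and for 16 of them the interval excluded a 2-fold rise. In the type I interferon response all 32 genes had a log2 fold change above 0 with a median of 0.34, 8 had an unadjusted p under 0.05 with Parp14 (0.47), Stat2 (0.46) and Dhx58 (0.68) first, and 22 excluded a 2-fold rise. Leaving out 1 library moved the type I count between 4 (without PD-1 replicate 1) and 24 (without IgG2a replicate 2) and the class I count between 3 (without any one of IgG2a replicate 6, PD-1 replicate 1 or PD-1 replicate 6) and 16 (without IgG2a replicate 2), and without the muscle-rich libraries they were 18 and 15. The difference between the class I and class II lists was not tested, and no gene of the class I or type I list was called by edgeR, limma voom or DESeq2. Reads of H2-Q6, H2-Q7 and other class I genes can be shared between copies.

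**Figure D3:**
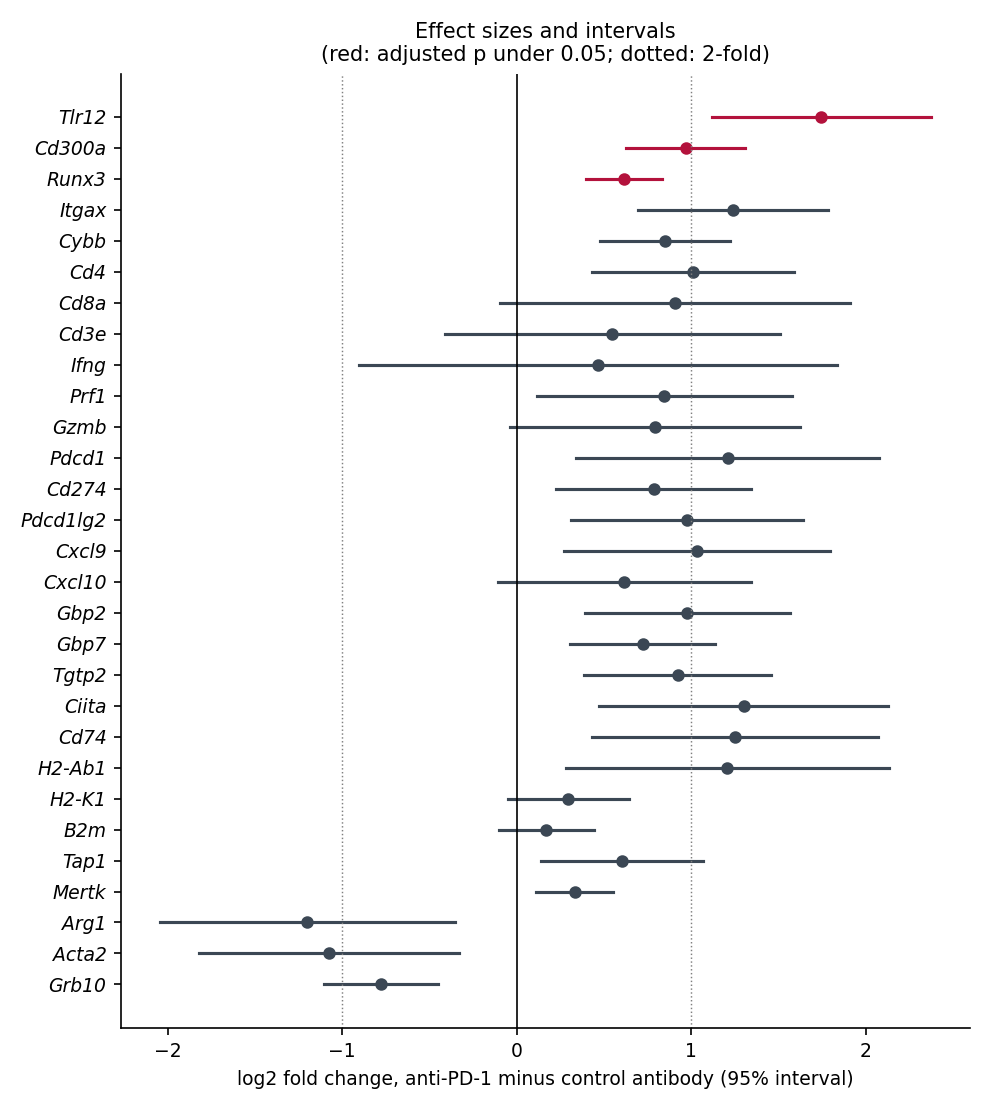
The log2 fold change of PD-1 minus IgG2a (x axis) is drawn for each gene named on the y axis with its 95% confidence interval, in red for the called genes Tlr12, Cd300a and Runx3, with dotted lines at a 2-fold change. The intervals of Ifng, Cd3e and Cd8a span from 0 or below to beyond a 2-fold rise, while that of B2m stays inside the dotted lines.

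The Toll-like receptor list held the called gene Tlr12, and the list of the CD300 family held Cd300a. All lists were chosen with earlier results of these data known, so where the called genes fell is a description only. The 26 Toll-like receptor and adaptor genes had a median log2 fold change of 0.12, with Tlr12 at 1.75 and Tlr9, a sensor of CpG DNA, at 0.86 ± 0.31 the only members with an unadjusted p under 0.05. The 23 genes in the list named CD300 family and inhibitory myeloid receptors, not all of which encode inhibitory receptors, all had a log2 fold change above 0, with a median of 0.31. Cd300a was joined at an unadjusted p under 0.05 by Cd300ld3 (1.0), Lair1 (0.61), the activating receptor gene Lilra5 (0.59), Siglece (0.73), the phosphatase gene Ptpn6 (0.48) and Pirb (0.54). Among 30 macrophage and monocyte genes the median was 0.14. Mertk, a receptor for engulfing dying cells, had a log2 fold change of 0.33 ± 0.11 and Fcgr4, an activating Fc receptor, 1.0 ± 0.39. Arg1, an arginine-consuming enzyme of suppressive macrophages, was the member on the lower side at an unadjusted p under 0.05, at 40.7 to 113 CPM (median 52.7) in IgG2a and 9.43 to 48.3 CPM (median 25.1) in PD-1, a log2 fold change of -1.20 ± 0.41 with an edgeR adjusted p of 0.514.

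Dendritic cell genes had a median of 0.33 over 18 genes, with Itgax, the maturation marker Cd83 (0.77 ± 0.25) and Ly6d (3.04) at an unadjusted p under 0.05. DESeq2 called Itgax and edgeR did not. No macrophage, Fc receptor or neutrophil gene was called by edgeR, limma voom or DESeq2. Fc receptor genes had a median of 0.18 over 9 genes with Fcgr4 alone at an unadjusted p under 0.05. The neutrophil list had a median of 0.85 over 12 genes and 2 such genes, Csf3r (0.85 ± 0.24) and Cxcr2 (1.51 ± 0.66). Without the muscle-rich libraries that median was 0.33, Csf3r was at 0.58 and Cxcr2 at 0.18, and PD-1 replicate 6 held the highest Cxcr2 value, 5.69 CPM against a group median of 0.838 CPM. Ly6d was at 1.13 without PD-1 replicate 6.

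The B cell list leaned on 1 tumour. Its median log2 fold change was 0.86 over 10 genes and 4 had an unadjusted p under 0.05 (Ighd, Pax5, Cd79a and Ighm). Cd79a, part of the B cell receptor, stood at 0.142 to 0.795 CPM in IgG2a and 0.191 to 13.2 CPM in PD-1 with a median of 0.390 CPM, the highest value being PD-1 replicate 6. Without that tumour the log2 fold change of Cd79a was -0.16, and that of the B cell chemokine gene Cxcl13 was -0.13 in place of 2.86. Without PD-1 replicate 6 alone the list median was -0.01, with 4 of 10 genes above 0 and 0 at an unadjusted p under 0.05. Without all 3 muscle-rich libraries, which include this tumour, the list median was 0.36 and 1 gene had an unadjusted p under 0.05. DESeq2 called Pax5 with all tumours.

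Remaining leukocyte lists gave no call in edgeR. Natural killer cell genes had a median of 0.20 over 10 genes, with Eomes alone at an unadjusted p under 0.05, and mast cell genes a median of -0.25 over 10 genes with 0. Of 32 cytokine and chemokine genes, 4 were on the higher side at that p (Cxcl5, Cxcr3, Cxcl13 and Il1b) and Ccl17 on the lower side, with a median of 0.27. Among 17 complement genes, Cfb had a log2 fold change of 1.12 ± 0.35 and the complement inhibitor Cd59a -0.57 ± 0.24, with a median of 0.18. Without PD-1 replicate 6 the complement median was -0.15 with 5 of 17 genes above 0 and the cytokine median 0.04, and without the muscle-rich libraries Cd59a was at -0.23 and Cxcl5 at 0.53. Limma voom and DESeq2 also called 0 genes of these 4 lists.

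Cell cycle, hypoxia and stromal lists had medians close to 0 over all tumours. Each of the 20 S phase genes and 20 mitosis genes had a log2 fold change above 0, with small medians of 0.10 and 0.17 and 0 genes at an unadjusted p under 0.05. Every one of these 40 intervals excluded a 2-fold rise. The shared spread behind these p-values and intervals includes the brequinar tumours, which varied more for both lists. The median within-group SD of log2 CPM for mitosis was 0.138 (IgG2a) and 0.145 (PD-1). With brequinar it was 0.567 under the control antibody and 0.4 under anti-PD-1. For S phase the same 4 values were 0.128, 0.191, 0.369 and 0.291. How far the wider spread set the count of 0 was not tested. Top2a, the topoisomerase of dividing cells, stood at 436 to 561 CPM in IgG2a and 576 to 711 CPM in PD-1, the only list member besides the 3 called genes whose groups did not overlap, with a log2 fold change of 0.29 ± 0.18. Hypoxia and glycolysis genes had a median of -0.0014 over 18 genes, endothelial genes -0.09 over 14 and fibroblast genes 0.04 over 13. Without PD-1 replicate 6 the endothelial median was -0.36 with 3 genes lower at an unadjusted p under 0.05, and the fibroblast median -0.23 with 1 of 13 above 0. Without the muscle-rich libraries the fibroblast median was -0.22 and the S phase median 0.03. Acta2, the smooth muscle actin of myofibroblasts and pericytes, had means of 299 and 142 CPM and a log2 fold change of -1.08 ± 0.36. Lgals7, a galectin of stratified epithelium kept in the keratinocyte list, had means of 34.6 ± 8.07 and 77.4 ± 24.6 CPM and a log2 fold change of 1.16 ± 0.27, called by DESeq2 and not by edgeR, while the keratin genes Krt5, Krt14 and Krt1 had 12, 4 and 0 counts over the 12 tumours. The 16 skeletal muscle genes had a median of -2.38 with all 16 below 0 and 0 with an unadjusted p under 0.05, and without the muscle-rich libraries 15 of 16 were above 0 with a median of 0.67. Without PD-1 replicate 6 alone their median was -5.94, with 13 of 16 lower at an unadjusted p under 0.05. No gene of the cell cycle, hypoxia, endothelial, fibroblast or muscle lists was called by edgeR, limma voom or DESeq2.

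Over all 32 lists, counting each gene once, 508 genes were tested and 390 (76.8%) had a log2 fold change above 0, against 49.9% of all genes. At an unadjusted p under 0.05, 87 were on the higher and 5 on the lower side. The 332 genes of pathway lists had a median of 0.29 with 86.4% above 0, and the 197 genes of cell type marker lists a median of 0.14 with 61.9% above 0. These genes share the same 12 tumours, so the counts describe these tumours and are not independent of each other.

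**Figure D4:**
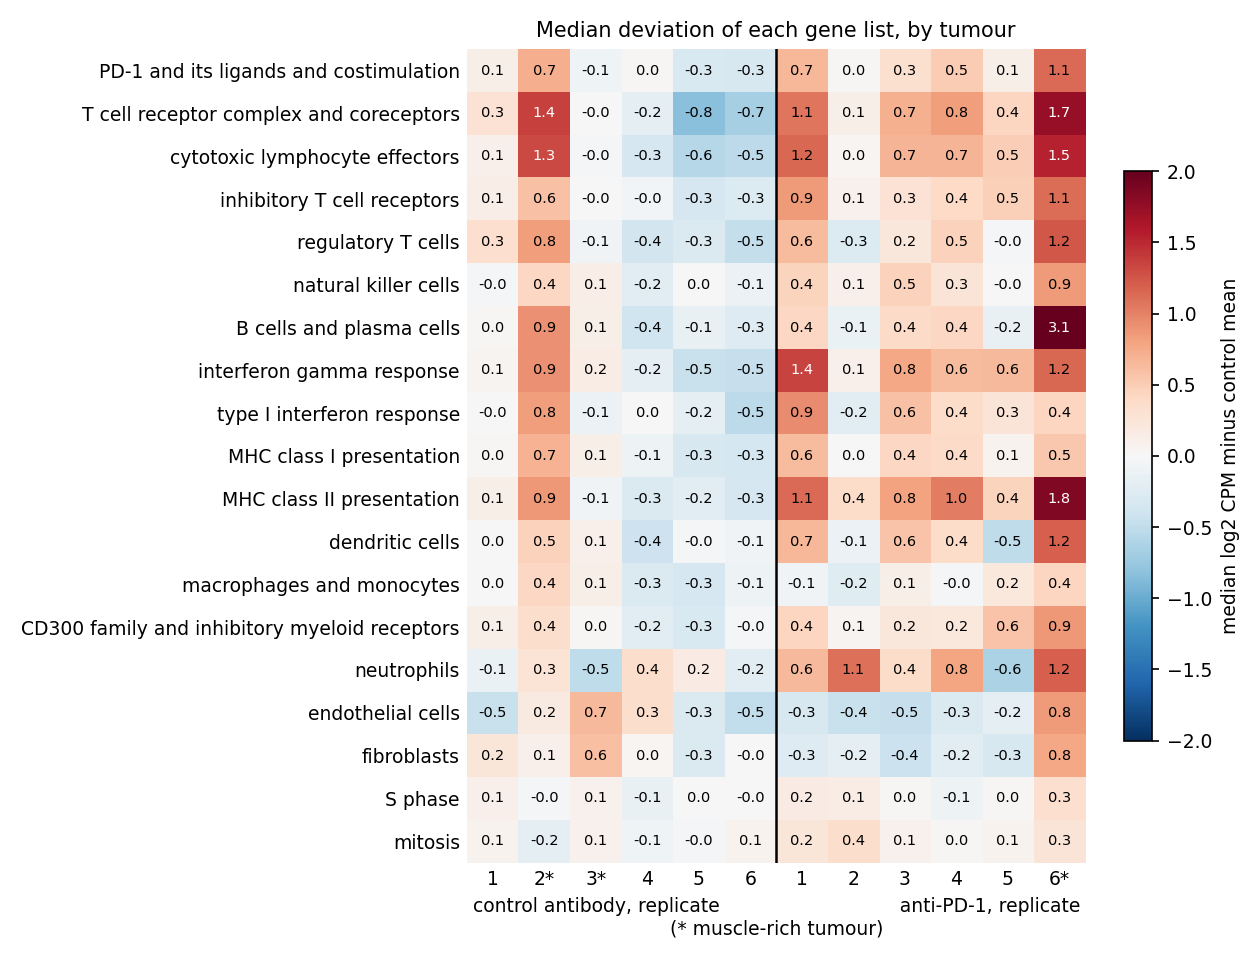
Each cell shows, for 1 list (rows) in 1 tumour (columns), the median over its genes of log2 CPM minus the IgG2a mean, with colours held at 2 and muscle-rich libraries starred. IgG2a replicate 2 is the high control and PD-1 replicate 2 the low treated tumour in most immune rows.

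Few tumours made up the overlap of immune genes between the groups. For the interferon gamma response, the median deviation in log2 CPM from the control mean was 0.06, 0.92, 0.15, -0.17, -0.45 and -0.47 in IgG2a replicates 1 to 6, and 1.35, 0.10, 0.77, 0.64, 0.64 and 1.16 in PD-1 replicates 1 to 6. IgG2a replicate 2 stood above 3 treated tumours besides PD-1 replicate 2, and PD-1 replicate 2 stood below 2 control tumours, IgG2a replicates 2 and 3. With both replicates 2 set aside, the remaining tumours did not overlap. Both were picked as the highest control and the lowest treated tumour on this same score, so this is a description only. For the T cell receptor list the controls ran from -0.84 to 1.37, with replicate 2 highest, and the treated tumours from 0.12 (replicate 2) to 1.74 (replicate 6). For MHC class II the controls ran from -0.34 to 0.87 and the treated tumours from 0.36 (replicate 2) to 1.85 (replicate 6). The high control and the treated tumour highest for T cell and class II genes were both muscle-rich, and the part of muscle RNA in these values was not tested. Without the 3 muscle-rich libraries, 26 of 34 interferon gamma response genes had an unadjusted p under 0.05 on the higher side with a median of 0.98, 10 of 22 T cell receptor genes with a median of 0.86, 11 of 20 cytotoxic effector genes with a median of 1.08 and 7 of 12 MHC class II genes with a median of 0.95. Over all genes 768 had an unadjusted p under 0.05 in that set. The same refit gave log2 fold changes of 1.33 for Gzmb, 1.07 for Cxcl10 and 0.49 for H2-K1. Leaving out 1 library moved the interferon gamma count between 15 (without PD-1 replicate 1) and 28, the T cell receptor count between 3 (reached without any one of several tumours of either group) and 14, and the cytotoxic count between 0 (without PD-1 replicate 6) and 14, each highest without IgG2a replicate 2.

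More genes were called between anti-PD-1 alone and brequinar with control antibody, a comparison that shares the PD-1 tumours with the one above. The edgeR test called 401 genes between PD-1 and BRQ+IgG2a, 203 higher in PD-1 (1.27%) and 198 lower (1.24%). Lgals7 was higher in PD-1, at 77.4 ± 24.6 against 18.0 ± 8.51 CPM (SD, n = 6 in each group), a log2 fold change of 2.10 ± 0.28 with an edgeR adjusted p of 0.000615. Atg9b, an autophagy membrane protein gene, was higher by 2.05 on the log2 scale and Msln, encoding the surface protein mesothelin, by 1.58, while Ptgfrn (-1.57), Enpp5 (-1.49) and Gypc (-0.47) were lower. Among the listed immune genes, Prf1 (5.06 against 15.7 CPM, -1.63), Cd4 (5.75 against 11.9 CPM, -1.04), Icos (-1.70), Cxcr6 (-1.70), Il15 (-0.91), Cst7 (-1.29), Klri2 (-1.81), Id2 (-0.71), Tlr2 (-0.63) and Ddx58 (-0.38) were lower in PD-1, as were C1s1 (-0.59) and Zbtb46 (-0.60). Mertk was higher, at 0.52 ± 0.11. Medians of PD-1 minus BRQ+IgG2a were -1.10 for the T cell receptor list, -1.13 for cytotoxic effectors and -0.64 for the interferon gamma response. The 3 genes called against IgG2a were not called here: Tlr12 had a log2 fold change of 0.16 ± 0.29, Cd300a -0.03 ± 0.16 and Runx3 -0.02 ± 0.11. This count leaned on single tumours: leaving out BRQ+IgG2a replicate 6 gave 139, leaving out BRQ+IgG2a replicate 5 gave 1178 and leaving out PD-1 replicate 2 gave 146.

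In tumours that also received brequinar, the T cell and interferon lists had anti-PD-1 medians below 0. BRQ+PD-1 against BRQ+IgG2a, which shares no tumour with PD-1 against IgG2a, gave 0 genes called by edgeR and 1168 with an unadjusted p under 0.05. Its list medians were -0.30 for the interferon gamma response, -0.59 for the T cell receptor list, -0.62 for cytotoxic effectors, -0.32 for MHC class II and -0.55 for the type I interferon response, each above 0 for anti-PD-1 alone. The difference of the 2 effects, tested as an interaction in edgeR, called 0 genes, with a smallest adjusted p of 0.206 and 1222 genes (7.62%) at an unadjusted p under 0.05. Limma voom called 272 genes and DESeq2 13. At an unadjusted p under 0.05 the interaction was negative, meaning a lower effect of anti-PD-1 with brequinar, for 23 of 34 interferon gamma response genes, 24 of 32 type I interferon genes, 12 of 22 T cell receptor genes, 9 of 20 cytotoxic effector genes, 11 of 21 class I and 7 of 12 class II genes, and positive for 0 genes of these lists. The interaction medians were -1.13 for the interferon gamma response and -1.33 for the T cell receptor list. Brequinar with control antibody already stood above IgG2a in the immune lists. Those medians were 1.36 for interferon gamma, 1.83 for T cell receptor, 1.74 for cytotoxic, 1.39 for class II and 0.97 for type I. Median deviations from the IgG2a mean, BRQ+PD-1 against PD-1, were 1.13 against 0.70 for interferon gamma and 0.88 against 0.91 for class II. How far the higher level under brequinar with control antibody set the interaction was not tested.

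For the 3 called genes the levels with brequinar lay near those of anti-PD-1 alone. Tlr12 stood at 6.09 to 24.1 CPM (median 18.3) in BRQ+IgG2a and 12.8 to 25 CPM (median 15.5) in BRQ+PD-1. Cd300a stood at 10.5 to 17.8 CPM (median 14.5) and 11.4 to 19.7 CPM (median 14.6), and Runx3 at 22.5 to 34.3 CPM (median 25.8) and 21.7 to 32.4 CPM (median 25.1). Both brequinar groups overlapped the anti-PD-1 tumours for all 3 genes. Within brequinar the log2 fold change of anti-PD-1 was 0.13 ± 0.29 for Tlr12, 0.06 ± 0.16 for Cd300a and -0.09 ± 0.11 for Runx3. Since these genes were picked by their PD-1 minus IgG2a values, these numbers are a description. Across 13536 genes with a mean of at least 1 CPM, the 2 anti-PD-1 effects had a Pearson correlation of 0.463 and a Spearman correlation of 0.0339. The sign was the same in 51.6%, as a description over genes measured in the same libraries. The skeletal muscle list had medians of -2.38 without and -4.19 with brequinar, and the part of muscle genes in the Pearson correlation was not tested.

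**Figure D5:**
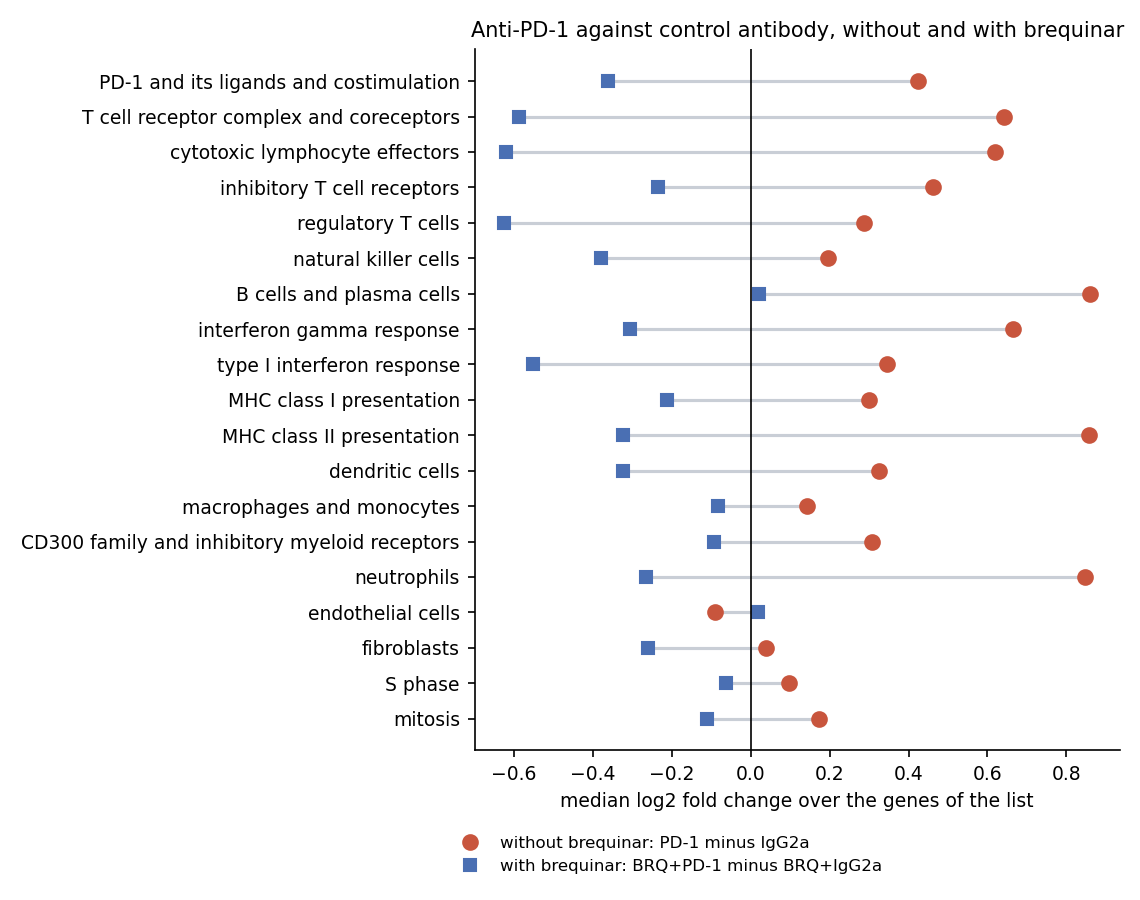
For each list (rows) the circle is the median log2 fold change of PD-1 minus IgG2a and the square that of BRQ+PD-1 minus BRQ+IgG2a (x axis). The T cell, interferon and MHC lists lie right of 0 without brequinar and left of 0 with it.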

How the data were processed

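RNA from 24 whole tumours was sequenced, and the authors deposited 1 table of raw read counts per gene, which was the only file used here; their deposited FPKM and TPM tables were not used. Per the submitters' processing notes, HISAT2 2.2.1 and StringTie 2.2.1 were used with GRCm39, after Trim Galore 0.6.7, and quality was checked with MultiQC 1.11 and FastQC 0.11.8. Which program counted reads, with which annotation and strand setting, is not given in the sources used here. Gene symbols were matched by Ensembl identifier to GENCODE M21 names (52081 of 55414 genes).

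Genes were kept by edgeR's filterByExpr (16029), scaled by TMM and tested with the robust quasi-likelihood test of edgeR 4.0.16 (limma 3.58.1, R 4.3.3) in 1 fit over the 4 groups, with 20 residual degrees of freedom and Benjamini-Hochberg adjustment at 0.05 over all genes tested. Log2 fold changes are given with standard errors, and log2 CPM used a prior count of 2. Alternatives were RLE scaling, no filter, no robust step, the compared groups alone, the replicate number as a block, a muscle covariate, leaving out each library or the libraries with Acta1 above 1000 CPM, limma voom and DESeq2 1.42.0. The test was checked on simulated counts.

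The comparison, the 32 gene lists (553 entries) and the named genes were chosen with earlier results of these data known. Named genes were every called gene, the 8 smallest p-values of each sign at a mean of at least 1 CPM, the 5 largest changes of each sign without overlap, the 3 smallest p-values of each list, and a set of immune genes always shown. Genes named beyond these, such as further list members at an unadjusted p under 0.05, were chosen after their values were seen.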

Additional observations from a re-analysis of the deposited data

Results flagged for a closer look

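In groups of 6, a tumour that stood far from its group was found in 25 of 276 groups of values (9.06%), where chance gives about 1 in 20; the genes share tumours, so these are not independent. PD-1 replicate 6, a muscle-rich library, was the distant tumour in 12 of the 14 found in PD-1. It stood high for the B cell genes Ighd (15.74 CPM) and Cd79a (13.24 CPM) and the B cell chemokine gene Cxcl13 (12.56 CPM). It also stood high for the neutrophil gene Csf3r (31.64 CPM), the chemokine gene Cxcl5 (13.47 CPM) and Adamtsl2 (2.769 CPM). Its list medians in log2 CPM above the control mean were 3.054 for B cells, 1.075 for complement, 0.8479 for endothelial cells, 0.7704 for fibroblasts, 0.57 for keratinocytes and 0.4507 for Toll-like receptors.

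PD-1 replicate 2 stood low for C1ra (49.17 CPM) and for the cytokine and chemokine list (-0.379). Among the controls, IgG2a replicate 2 stood high for Gbp7 (81.93 CPM), Parp14 (78.3 CPM), Stat2 (63.31 CPM), Gzmb (9.192 CPM), Klrc1 (3.801 CPM), C1ra (81.14 CPM) and Hist1h4h (2.384 CPM), and low for Dlc1 (33.04 CPM). Its list medians were 1.318 for cytotoxic effectors and 0.8724 for MHC class II presentation. IgG2a replicate 4 stood low for Eomes (0.3556 CPM).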

How the results depend on the processing

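For PD-1 against IgG2a, the 3 called genes became 0 with no filter on low counts, 0 with the replicate block, 9 with limma voom and 32 with DESeq2, and 0 to 2 when 1 library was left out in turn (2 without PD-1 replicate 2). The count was 3 with RLE scaling, without the robust step and with the muscle covariate, 4 with the 2 groups alone, and 2 without the muscle-rich libraries, neither of them among the 3. For PD-1 against BRQ+IgG2a, the 401 called genes became 230 with no filter, 184 with the replicate block, 153 with the 2 groups alone, 632 with the muscle covariate, 2675 with limma voom, 791 with DESeq2 and 139 to 1178 with 1 library left out. For the interaction, 0 called genes became 1 without the muscle-rich libraries, 272 with limma voom, 13 with DESeq2 and 0 to 1 with 1 library left out, and stayed at 0 with the replicate block. The cause of these shifts was not tested, and the fits that leave libraries out also hold fewer samples.

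With 1 library left out, the log2 fold change ranged from -0.16 to 2.97 for Cd79a and from -0.13 to 3.32 for Cxcl13, both lowest without PD-1 replicate 6. The sign also turned for Pvalb (0.65) and Acta1 (0.72) without the muscle-rich libraries. List medians were followed over the main fit, RLE scaling, the fit without the muscle-rich libraries and the fits with 1 library left out. Of 32 lists, 20 kept a positive median in all of these and 1 a negative one. The other alternatives were not run for lists. Same-numbered tumours did not pair: their deviations correlated between -0.668 and 0.604, and 0 of 6 PD-1 tumours correlated best with the control of their own number. No 2 tumours of a group agreed within sampling noise (chi-square per degree of freedom 9.18 to 219 over 30 pairs). Intervals were widest for scarce genes: under 1 CPM the median 95% interval extended 0.915 to each side on the log2 scale.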

Other observations

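Aqp3, a channel for water and glycerol, stood at 0.138 to 1.1 CPM in IgG2a and 1.26 to 2.34 CPM in PD-1, and Adra1b, an adrenergic receptor gene, at 2.66 to 5.05 CPM and 6.43 to 10.5 CPM, both without overlap. Lum, a collagen-binding proteoglycan of fibroblasts, stood at 159 to 269 CPM against 45.7 to 203 CPM, and Pdgfrb, a receptor of pericytes and fibroblasts, at 318 to 485 CPM against 210 to 399 CPM, both with overlap. The adipocyte list had a median log2 fold change of 0.70 over 7 genes, the erythroid list 0.24 over 5, the neural crest list 0.07 over 12 and the melanocyte list -0.11 over 4, each with 0 genes at an unadjusted p under 0.05 and 0 called by edgeR, limma voom or DESeq2. Without PD-1 replicate 6 the adipocyte median was -0.95 and the erythroid median -0.25, and without the muscle-rich libraries the erythroid median was -0.50 and the neural crest median -0.06. Ttc9 stood at 9.40 to 17.3 CPM in IgG2a and 5.26 to 8.82 CPM in PD-1, and Gmpr at 11.7 to 32.4 CPM and 6.88 to 11.6 CPM.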
